A study of Homo sapiens with 18 samples.

Results

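HT29 cells that received OXA plus Curcumin were compared with HT29 cells that received OXA only, so that the comparison gave the transcripts that moved when Curcumin was added to an OXA dose. HT29 is an established human colorectal cancer line with mutant p53, and HTOXAR3 is its derived subline with acquired resistance to OXA. The members were the 3 arrays of HT29 under 10 µM OXA for 24 h and the 3 arrays of HT29 under 10 µM OXA plus 10 µM Curcumin for 24 h, chosen by their labels, which made 6 of 18 arrays. The other arrays were untreated HT29, and HTOXAR3 untreated, under 30 µM OXA or under 30 µM OXA plus 10 µM Curcumin, with 3 arrays in each group. The labels call the arrays of a group biological replicates. No array of Curcumin without OXA was analysed here, so each value below is the effect of Curcumin in the presence of OXA, and each comparison rests on 1 cell line. Total RNA was read on 1-colour oligonucleotide arrays, and every value is a normalized intensity on the log2 scale, in which a difference of 1 is a 2-fold change. One probe stood for each gene name, levels were not compared between genes, and a change in RNA per cell cannot be told apart from a change in the mix of cells.

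OXA is a platinum drug that forms adducts on DNA, and Curcumin (diferuloylmethane) is a plant polyphenol with electrophilic groups that react with thiols. Cells answer such electrophiles through NRF2, a transcription factor that is released from KEAP1 and switches on antioxidant and glutathione genes. Misfolded protein in the cytosol is answered by HSF1 and the heat shock proteins, and misfolded protein in the endoplasmic reticulum by the unfolded protein response, which meets amino acid shortage at ATF4. Metallothioneins are small zinc-binding proteins driven by MTF1, E2F factors drive the genes of DNA replication, and NF-κB drives chemokine and survival genes.

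Promoters of the genes on which the results turn are printed here to show the regulatory letters that are usually assigned to these pathways. For each of 5 pathways, the called member with the largest difference whose window held the pathway's motif was taken, and for the heat shock genes the first and the second were taken. Windows were the 250 bases before the transcription start in RefSeq (GRCh38.p14), read 5′ to 3′ on the gene's strand, and capitals mark each match to the motif on either strand. The motifs were GAANNTTC for heat shock genes (*HSPA6*, *HSPA1A*), TGACNNNGC for the antioxidant response (*ME1*), TGCACNC or TGCGCNC for the metal response (*MT1X*), TGATGNAA for the amino acid response (*CHAC1*) and TTTCCCGC or TTTGGCGC for E2F (*POLA1*).
HSPA6: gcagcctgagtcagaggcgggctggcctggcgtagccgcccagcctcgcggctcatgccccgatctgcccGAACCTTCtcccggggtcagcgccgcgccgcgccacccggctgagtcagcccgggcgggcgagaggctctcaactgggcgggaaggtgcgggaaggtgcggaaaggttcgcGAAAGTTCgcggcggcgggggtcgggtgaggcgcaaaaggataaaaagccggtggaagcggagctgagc
HSPA1A: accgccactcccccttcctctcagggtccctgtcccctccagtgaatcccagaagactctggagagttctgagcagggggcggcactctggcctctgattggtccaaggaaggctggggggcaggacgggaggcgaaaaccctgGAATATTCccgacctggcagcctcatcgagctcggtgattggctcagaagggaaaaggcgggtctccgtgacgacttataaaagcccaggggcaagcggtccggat
ME1: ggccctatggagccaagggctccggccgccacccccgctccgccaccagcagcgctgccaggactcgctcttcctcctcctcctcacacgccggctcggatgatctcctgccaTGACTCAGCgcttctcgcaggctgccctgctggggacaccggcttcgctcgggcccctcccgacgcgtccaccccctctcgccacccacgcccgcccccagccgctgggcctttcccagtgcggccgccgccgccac
MT1X: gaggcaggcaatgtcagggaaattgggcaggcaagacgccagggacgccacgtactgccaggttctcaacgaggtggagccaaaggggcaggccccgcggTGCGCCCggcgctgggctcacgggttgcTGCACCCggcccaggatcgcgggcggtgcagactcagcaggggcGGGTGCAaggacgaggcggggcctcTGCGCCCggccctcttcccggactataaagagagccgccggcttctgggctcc
CHAC1: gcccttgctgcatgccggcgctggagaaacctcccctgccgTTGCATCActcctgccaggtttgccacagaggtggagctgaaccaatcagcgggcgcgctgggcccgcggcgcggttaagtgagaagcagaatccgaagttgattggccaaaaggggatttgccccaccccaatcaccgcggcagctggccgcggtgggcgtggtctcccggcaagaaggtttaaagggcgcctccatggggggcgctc
POLA1: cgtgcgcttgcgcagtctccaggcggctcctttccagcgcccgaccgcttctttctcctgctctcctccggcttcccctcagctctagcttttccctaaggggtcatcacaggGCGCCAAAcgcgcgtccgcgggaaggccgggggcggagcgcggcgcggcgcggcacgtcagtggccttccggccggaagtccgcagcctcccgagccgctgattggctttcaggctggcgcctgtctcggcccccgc
The *HSPA6* window lay at chr1:161524290-161524539 on the plus strand and held 2 matches. The *HSPA1A* window (chr6:31815293-31815542, plus strand) held 1 match. The *ME1* window (chr6:83431052-83431301, minus strand) held 1 match, which also contains the AP-1 letters TGACTCA. The *MT1X* window (chr16:56682220-56682469, plus strand) held 4 matches, the most of the windows shown. The *CHAC1* window (chr15:40953221-40953470, plus strand) and the *POLA1* window (chrX:24693668-24693917, plus strand) held 1 match each. Of 27305 promoters of this length, GAANNTTC was in 5.85%, against 10 of 24 heat shock genes with a window. TGACNNNGC was in 11% of all windows and in 6 of 21 NRF2 targets. The metal response letters were in 24.7% of all windows and in 5 of 8 genes of the metallothionein list. They were not particular to that list, since 11 of 21 NRF2 targets and 12 of 24 p53 targets held them. The antioxidant letters were likewise in 4 of 8 genes of the metallothionein list. TGATGNAA was in 3.19% of all windows and in 6 of 33 ATF4 and unfolded protein response genes, and the E2F letters were in 1.96% of all windows and in 13 of 37 replication genes. A match is a run of letters and not a measured binding site.

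Between 59.3% and 63.6% of the gene probes were well above background on the 6 arrays. Correlations between these arrays lay between 0.987 and 0.993, and the first principal component, with 28.2% of the variance, put the OXA arrays on one side and the OXA plus Curcumin arrays on the other. Of 13 colon epithelium markers, 12 were well above background on all 6 arrays, and 0 of 13 were called. Of 9 fibroblast markers, 0 were well above background on all 6 arrays and 6 were dim in both groups. Of 8 leukocyte markers, 7 were above background, mostly at low levels, and 1 of them was called lower. Of 6 endothelial markers, 2 were above background and 0 were called. The arrays lay on 3 slides: OXA replicates 1, 2 and 3 were on slides 1, 2 and 3, and OXA plus Curcumin replicates 1 and 2 were on slide 2 and replicate 3 on slide 3.

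Adding Curcumin to OXA changed 2002 of 36203 genes tested (5.53%) at a Benjamini-Yekutieli adjusted p under 0.05 and a fold above 1.2 (limma, called below). Of these, 1136 were higher with Curcumin (3.14% of the genes tested) and 866 were lower (2.39%). Among the 19840 genes tested that were well above background on all 6 arrays (bright genes below), 1087 were higher (5.48%) and 863 lower (4.35%), and most members of the lists below were bright. The rises were larger than the falls: 194 called genes rose by over 2-fold and 26 fell by over 2-fold. The median difference over all genes was -0.02, and the median size among called genes was 0.52. In all 2002 called genes the 3 arrays of one group lay outside the range of the other, which held for 26.3% of all genes. The sign of a called gene within a slide or without one array is therefore no separate evidence. The count rested on the spread shared over 18 arrays: with only the 6 arrays compared it was 16 by Benjamini-Yekutieli and 728 by Benjamini-Hochberg, and with the 9 HT29 arrays 334, from the same group means. Without one array it lay between 1210 (without OXA plus Curcumin replicate 1) and 1597, and it was 1252 without OXA replicate 2 and 1334 without OXA replicate 3.

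**Figure D1:**
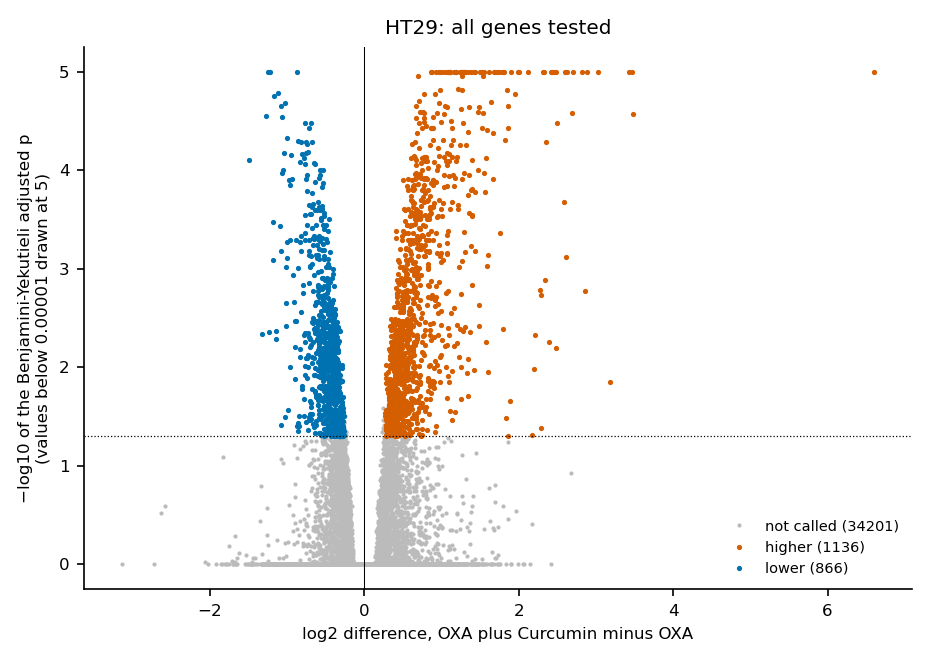
Each point is 1 of 36203 genes tested in HT29. The horizontal axis is the log2 difference (OXA plus Curcumin minus OXA) and the vertical axis is -log10 of the Benjamini-Yekutieli adjusted p, with values under 0.00001 drawn at 5. The 1136 called rises (orange) reach to 6.61, and the 866 called falls (blue) reach to -1.49.

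*HSPA6*, a stress-inducible HSP70 that is nearly silent in unstressed cells, changed most of all called genes. Its level was 5.67, 5.70 and 5.42 on the OXA arrays and 12.31, 12.42 and 11.88 on the OXA plus Curcumin arrays. The difference was 6.61 ± 0.15 (SE; adjusted p = 2.8e-10), a 97.4-fold rise, read by a probe at chr1:161496158-161496217 (GRCh37). The other probe of the gene gave a smaller difference of 4.13. Untreated HT29 stood at 6.17, from which OXA alone differed by -0.57 without passing the test.

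Among called genes with a RefSeq symbol and a probe well above background on all 6 arrays, the next largest rises were a scaffold protein and enzymes of lipid, steroid and heme metabolism. *SDCBP2*, a PDZ scaffold protein, stood at 8.58, 8.45 and 8.38 with OXA and at 12.18, 11.95 and 11.71 with Curcumin added, an 11.1-fold rise. *CYP4F3*, which hydroxylates leukotriene B4, rose from 5.12, 4.73 and 4.79 to 8.55, 8.30 and 8.07. *AKR1C1*, an aldo-keto reductase and an NRF2 target, rose from 10.29, 10.37 and 10.33 to 13.51, 13.41 and 13.15. In these genes the arrays of a group lay within 0.5 of each other and the groups were far apart, with differences of 3.47, 3.43 and 3.03. *HMOX1*, the heme oxygenase that releases iron and biliverdin from heme, stood at 10.00, 9.92 and 10.01 with OXA and at 12.68, 12.95 and 12.97 with Curcumin added (difference 2.89 ± 0.11, adjusted p = 4.5e-08). *HMOX1* differed from the others in its path, since OXA alone differed by -1.97 from an untreated level of 11.95, and the combination by 0.92.

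The remaining genes of the 12 largest rises lay between 2.46 and 2.86. They were *SYNPO* (2.86), an actin-binding protein, *AKR1C8* (2.83), an aldo-keto reductase relative, *ZFAND2A* (2.71), an arsenite-inducible protein that binds the proteasome, *NDRG1* (2.61), a stress-response gene, *IL10RA* (2.50), the interleukin 10 receptor, *C1S* (2.48), a complement protease, and *GPX3* (2.46), the secreted glutathione peroxidase. Other, dimmer probes gave 1.59 and 0.33 for *SYNPO*, 0.19 for *AKR1C8*, 0.82 for *C1S* and 2.42 and 1.32 for *AKR1C1*. In *SYNPO*, OXA replicate 1 was at 6.10 and the other OXA arrays at 4.78 and 4.84, all below the combination arrays (8.42, 7.92 and 7.95). For *IL10RA* the spot of OXA replicate 1 was flagged as an outlier and left out of the fit. All 12 genes were also called higher in HTOXAR3.

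The 12 largest falls, chosen in the same way, were smaller and lay between -1.08 and -1.49. *AKAP12*, a scaffold of protein kinase A, fell from 11.84, 11.58 and 11.41 to 10.24, 10.03 and 10.09 (difference -1.49). *PLAU*, the urokinase plasminogen activator and an NF-κB target, fell from 12, 12.08 and 12.09 to 10.83, 10.86 and 10.75 (difference -1.24 ± 0.06, adjusted p = 3.7e-07). *AXL*, a receptor tyrosine kinase, fell from 10.72, 10.63 and 10.55 to 9.55, 9.45 and 9.42. These genes stood higher with OXA alone than in untreated cells, by 2.38 (*AKAP12*), 2.77 (*PLAU*) and 1.51 (*AXL*), and the combination lay between the other groups. The comparison of OXA with untreated cells shares the OXA arrays with the comparison described here, so the values are only set side by side.

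The other falls were *LOXL3* (-1.32), a lysyl oxidase, *RASL10B* (-1.28), a Ras-like GTPase, the antisense RNA *PRKAG2-AS1* (-1.23), the ligand *WNT11* (-1.22), the adaptor *DOK3* (-1.18), the keratin *KRT14* (-1.17), the metallothioneins *MT1G* (-1.14) and *MT1HL1* (-1.11), and lymphotoxin beta, *LTB* (-1.08). *LOXL3* was at 8.08 on OXA plus Curcumin replicate 1 and at 9.01 and 9.12 on the others, against 10.02 to 10.09 with OXA. The other probes of *DOK3* gave 0.21 and -0.93, and 2 dim probes of *KRT14* gave 0.22 and 0.08. A dimmer probe of *LOXL3* gave -0.77 and was not called. Of the 12 falls, 8 were also called lower in HTOXAR3.

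**Figure D2:**
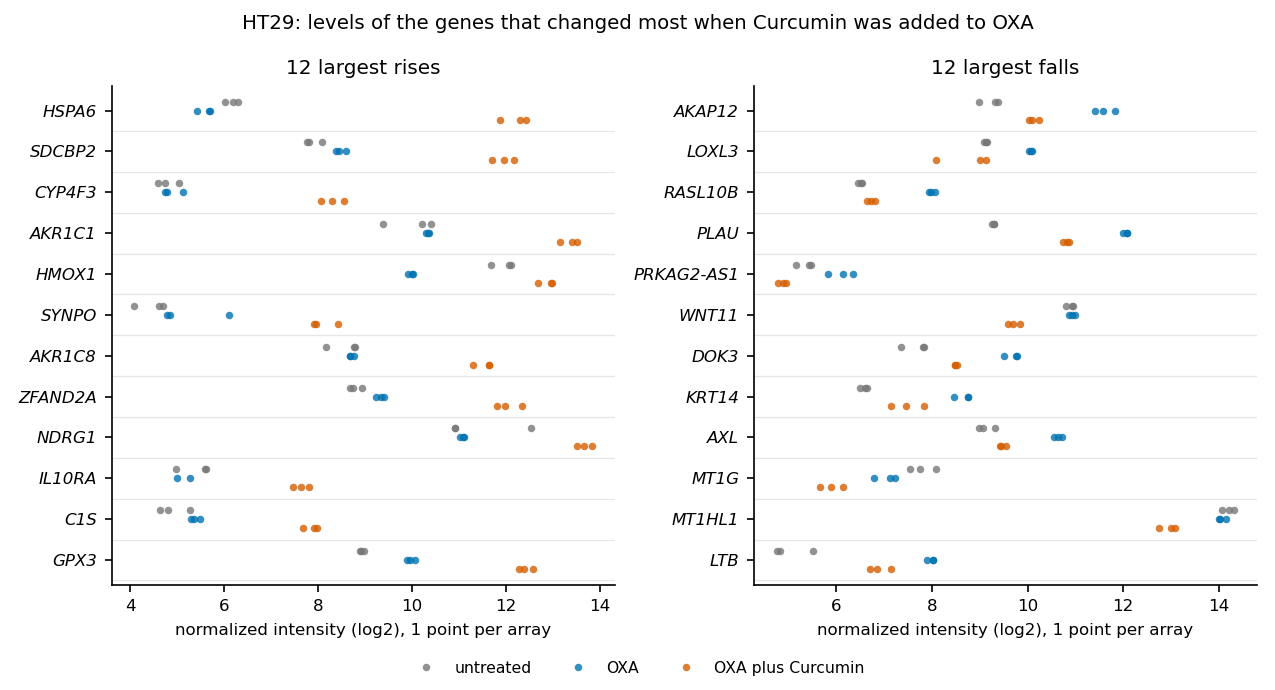
Normalized intensity (log2, horizontal axis) of the 12 largest rises (left) and the 12 largest falls (right) in HT29, with 1 point per array for untreated (grey), OXA (blue) and OXA plus Curcumin (orange). For each gene the OXA and OXA plus Curcumin arrays are apart, most widely in *HSPA6*, and *HMOX1* is the rise whose OXA arrays lie far below the untreated ones.

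Of 27 heat shock proteins and co-chaperones, 5 rose and 0 fell, against 3.14% of all genes and 5.48% of bright genes that rose, and the median of the list was 0.07. The members that rose were the inducible HSP70 genes and their partners. *BAG3*, a co-chaperone of HSP70 in selective autophagy, rose by 1.35 ± 0.11 from 9.60, 9.63 and 9.29 to 10.89, 10.98 and 10.71. *HSPA1A* rose by 1.30 ± 0.09 from 12.71, 12.61 and 12.66 to 13.84, 14.08 and 13.94, and its neighbour *HSPA1B* by 1.12. The proteins of these genes are nearly identical, and their probes shared at most 23 of 60 bases in an ungapped match. *DNAJB4*, an HSP40, rose by 0.88. The abundant chaperones did not pass the test: *HSP90AA1* differed by -0.13, *HSPA8* by 0.02 and *HSPD1* by -0.24, and *DNAJB1* missed the threshold at 0.30 (adjusted p = 0.057). *HSF1* itself differed by -0.11. Relative to untreated cells *HSPA1A* stood at -0.83 with OXA alone and at 0.47 with the combination. In HTOXAR3, 9 members of the list were called higher. Over all genes there 8.83% were called, 1602 higher and 1596 lower, which is the background for the HTOXAR3 counts below.

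The NRF2 antioxidant targets rose most widely: 21 of 30 measured genes were higher and 0 lower, with a median of 0.57 against -0.02 over all genes. Besides *AKR1C1* and *HMOX1* they included *OSGIN1* (2.00 ± 0.12), an oxidative stress growth inhibitor, which went from 8.48, 8.48 and 8.52 to 10.57, 10.57 and 10.35. *SLC7A11*, the cystine importer that feeds glutathione synthesis, rose by 1.15 ± 0.10 from 11.10, 11.28 and 11.38 to 12.52, 12.43 and 12.25, and its partner chain *SLC3A2* by 0.67. *FTL*, the ferritin light chain, rose by 1.19 ± 0.06 from a high level, 15.94, 15.96 and 16.04, to 17.30, 17.13 and 17.08. Ferritin and *HMOX1* were also the larger 2 of 4 iron-handling genes that rose among 19, beside the iron exporter *SLC40A1* (0.63) and *NCOA4* (0.30), which carries ferritin to lysosomes.

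The NRF2 targets that rose had several roles. Among the reductases *AKR1C3* (1.05), *AKR1B10* (1.03), *SRXN1* (0.97), *GSR* (0.75) and *NQO1* (0.59) rose. Among the sources of NADPH, *ME1* (0.86), *PGD* (0.37) and *TALDO1* (0.28) rose. *ME1* went from 9.16, 9.25 and 9.36 to 10.29, 10.07 and 9.99. *SQSTM1*, an autophagy receptor that binds KEAP1, rose by 0.89, and *GCLC*, the catalytic subunit of glutathione synthesis, by 0.37. The members that did not pass were *ABCC2* (1.37, with OXA arrays at 4.72, 5.52 and 4.79), *ABCC3* (0.47), *TXNRD1* (0.42), *GCLM* (0.29), *TXN* (0.29), *UGDH* (0.24), *FTH1* (0.22), *PRDX1* (0.19) and *TKT* (0.06). All 30 differences were above 0. In HTOXAR3, 24 of the 30 were called higher, with a median of 0.61.

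Of 34 ATF4 and unfolded protein response genes, 15 rose and 0 fell, with a median of 0.34. *DDIT4*, an inhibitor of mTORC1, rose by 1.85 ± 0.14 from 7.92, 8.09 and 8.25 to 9.95, 9.98 and 9.87. *DNAJB9*, a co-chaperone of the endoplasmic reticulum, rose by 1.79 ± 0.10 from 9.70, 9.78 and 9.91 to 11.59, 11.74 and 11.44. *CHAC1*, which degrades glutathione and is an ATF4 target, rose by 1.34 ± 0.09 from 8.86, 8.68 and 8.67 to 10.14, 9.99 and 10.11. A dimmer probe of *CHAC1* gave 0.54 and was not called. Members of each branch were among the rises. On the side of protein folding and degradation these were *HERPUD1* (1.12), *DNAJC3* (0.96), *HSP90B1* (0.79), *HSPA5* (0.73), *PDIA4* (0.41) and *XBP1* (0.32). On the side of ATF4 and amino acid supply they were *DDIT3* (1.04), *ASNS* (1.00), *SESN2* (0.56), *TRIB3* (0.50), *SARS1* (0.32) and *WARS1* (0.29). *ATF4* differed by 0.06 and the serine synthesis genes *PSAT1* and *PHGDH* by 0.06 and 0.07, and these did not pass the test.

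Members of the list stood at different levels relative to untreated cells. *HSPA5*, the main chaperone of the endoplasmic reticulum, stood at -2.15 relative to untreated cells with OXA and still at -1.41 with Curcumin added. *ASNS*, asparagine synthetase, stood at -1.53 and then at -0.53. *DDIT4* stood at -1.37 and then at 0.48. *DDIT3* took another path, since it stood at 1.64 relative to untreated cells with OXA and at 2.67 with the combination.

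Many proteasome genes rose by small amounts. Of 34 subunits and activators, 19 were called higher and 0 lower, with a median of 0.35 and a range from -0.18 to 0.88. The largest was *PSMC4*, an ATPase of the regulatory particle, which rose by 0.88 ± 0.07 from 13.16, 13.16 and 13.15 to 14.18, 13.98 and 13.94. Subunits of the core (*PSMB7*, 0.58, *PSMB2*, 0.51) and of the lid and base (*PSMD2*, 0.55, *PSMD14*, 0.51, *PSMD12*, 0.41) and the activator *PSME4* (0.62) were among the rises. Dimmer probes of *PSME4* gave 0.15 and 0.50 and were not called. The catalytic *PSMB5* differed by 0.23 and the immunoproteasome genes *PSMB8* and *PSMB9*, which are outside this list, by -0.42 and 0.08, none of them called. In HTOXAR3, 28 of the 34 were called higher, with a median of 0.45.

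Of 14 genes in the list of metallothioneins and zinc transport, 8 fell and 0 rose, against 2.39% of all genes and 4.35% of bright genes that fell, with a median of -0.80. All 8 were metallothioneins. *MT1X* fell by 1.07 on the log2 scale from 13.40, 13.41 and 13.44 to 12.07, 12.45 and 12.53. *MT2A* fell by 1.00 from 15.45, 15.39 and 15.36 to 14.12, 14.47 and 14.60. *MT1G* fell by 1.14 from 7.22, 6.79 and 7.12 to 5.66, 5.89 and 6.14. In each of these 3 genes the lowest array was OXA plus Curcumin replicate 1, and the groups did not overlap. *MT1M* (-1.04), *MT1B* (-0.96), *MT1E* (-0.95), *MT1F* (-0.86) and *MT1A* (-0.73) fell as well.

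Some metallothionein probes are alike: the ungapped match was 49 of 60 bases for *MT1B* and *MT1E*, 46 for *MT1F* and *MT1H* and 42 for *MT1A* and *MT1HL1*, so the members of these pairs cannot be told apart fully. *MT1H* (-0.15) did not pass the test, although its probe is like that of *MT1F* (-0.86). *MT3* (0.05), the zinc exporter *SLC30A1* (0.11) and the factor *MTF1* (-0.08) did not pass either. OXA alone left the list near its untreated level (median -0.15) and the combination lay below it (median -0.67). The median within slides was -0.98 on slide 2 and -0.62 on slide 3. In HTOXAR3, 7 members fell and 1, *SLC30A1* (0.38), rose, with a median of -0.54.

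Many genes of DNA replication and S phase fell by small amounts: 26 of 43 were called lower and 0 higher, with a median of -0.40 and all 43 differences below 0. *POLA1*, the catalytic subunit of DNA polymerase alpha, fell by 0.61 from 11.60, 11.45 and 11.51 to 10.79, 10.95 and 10.99. *MCM7*, a subunit of the replicative helicase, fell by 0.59 from 17.31, 17.31 and 17.35 to 16.66, 16.73 and 16.81. Subunits of the helicase (*MCM4*, -0.51, *MCM2*, -0.44), the clamp *PCNA* (-0.40) and its loader *RFC3* (-0.48) were among the falls. So were *CCNE2* (-0.60), the cyclin E of S phase entry, the nucleotide enzymes *RRM2* (-0.54) and *TYMS* (-0.47), the target of fluoropyrimidines, and the factor *E2F1* (-0.37). None of these genes changed by 2-fold.

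Of 42 genes of G2 and mitosis, 4 fell and 0 rose, with a median of -0.18: *CDC25A* (-0.37), *FOXM1* (-0.32), *CDK1* (-0.31) and *KIF23* (-0.29). *MKI67* differed by -0.40 and *TOP2A* by -0.37 and did not pass the test. Of 49 replication-dependent histones 1 rose (*H2AC19*, 0.60) and 0 fell, with a median of -0.24, and this rise was kept in 1 of the 6 fits without one array. The histone median was -0.11 without OXA replicate 1, -0.35 without OXA replicate 3, -0.15 without OXA plus Curcumin replicate 1 and 0.0022 within slide 3. Without one array the falls among the G2 and mitosis genes numbered 0 to 3.

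Of 56 DNA repair and damage response genes, 9 fell and 0 rose, with a median of -0.17. Among them were the exonuclease *EXO1* (-0.57), the helicase *BLM* (-0.53), the checkpoint mediator *CLSPN* (-0.52), which the replication list holds as well, *BRCA2* (-0.48), the crosslink repair gene *FANCI* (-0.46), *RAD51C* (-0.36), *BRCA1* (-0.36) and *RAD51D* (-0.30), and without OXA replicate 2 the falls numbered 5. The genes of nucleotide excision repair, which removes platinum adducts, were not called: *ERCC1* differed by -0.09, *XPA* by -0.18, *XPC* by -0.38 and *ERCC4* by -0.07. Of 30 genes of platinum transport and drug efflux, 2 rose, near the share of bright genes that rose (5.48%). They were the glutathione transferase *MGST1* (0.57) and the copper carrier *SLC31A2* (0.29). The copper transporters *SLC31A1* (0.05), *ATP7A* (0.48) and *ATP7B* (-0.23) did not pass the test.

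Of 30 p53 targets 8 rose and 0 fell, with a median of 0.08. *CDKN1A*, the CDK inhibitor p21, rose by 2.12 ± 0.14 (4.34-fold) from 5.40, 5.22 and 5.23 to 7.35, 7.57 and 7.29, and OXA alone differed by 0.04 from its untreated level of 5.24. *GADD45B* rose by 1.53 and *GADD45A* by 0.96, both growth arrest genes that other stress pathways also switch on. *PLK3* (0.64), *BBC3* (0.58), *SESN2* (0.56), *PHLDA3* (0.54) and *PMAIP1* (0.40) rose as well. The p53 targets *MDM2* (-0.08), *FAS* (-0.13) and *BAX* (-0.35), did not pass the test. In the BCL2 family 4 of 21 genes rose, all pro-apoptotic, namely *BMF* (0.85), *BOK* (0.62), *BBC3* and *PMAIP1*, and 1 fell, the pro-apoptotic *BIK* (-0.38), which lost its call in each of the 6 fits without one array. The survival genes *MCL1* (0.06), *BCL2L1* (-0.16) and *BCL2* (-0.01) did not pass the test.

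NF-κB targets went both ways and most did not pass the test. Of 55 targets and feedback genes, 2 rose and 5 fell, with a median of -0.06, beside 5.48% and 4.35% of bright genes. Beside *PLAU* and *LTB* the falls were *CD83* (-0.75), a surface marker of activated immune cells, which went from 8.28, 8.34 and 8.19 to 7.41, 7.58 and 7.57, the cyclin *CCND1* (-0.36) and *NFKB1* (-0.33), which encodes p105 and p50. The mitochondrial superoxide dismutase *SOD2* rose by 0.82, and *IL1A*, not well above background on any of the 6 arrays, was called higher, so that no fold is given. The feedback genes *TNFAIP3* (-0.08) and *NFKBIA* (0.12) and the adhesion molecule *ICAM1* (-0.12) were not called. Without one array the falls lay between 2 (without OXA replicate 2) and 4 and the rises between 1 and 2.

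A list of 11 genes held 9 that the study followed by other assays and 2 receptors of its chemokines, and on the arrays 1 of them passed the test in HT29. *CXCL8*, the chemokine interleukin 8, stood at 8.61, 8.60 and 8.56 with OXA and at 8.34, 8.54 and 8.48 with Curcumin added, a difference of -0.14 ± 0.21. *CXCL1* stood at 12.39, 12.31 and 12.28 with OXA and at 12.06, 12.13 and 12.40 with Curcumin added, and these ranges overlapped (-0.13 ± 0.13). Both lay above untreated cells in either treatment, *CXCL8* by 1.89 and 1.75 and *CXCL1* by 1.67 and 1.54. *CXCL2* differed by 0.37, *BIRC5* (Survivin) by -0.19, *AKT1* by -0.25, *RELA* by 0.06 and *BCL2* by -0.01. *CXCR1* (-0.04) and *CXCR2* (-0.20) are receptors of these chemokines, and *CXCR2* was dim in both groups. *CCND1* (Cyclin D1) fell from 10.48, 10.60 and 10.54 to 10.28, 10.19 and 10.09, a call that *CCND1* lost without OXA replicate 2 (adjusted p = 0.059) and with the replicate number as a block (adjusted p = 0.053). In HTOXAR3 the difference was -0.70 for *CXCL1*, which was called, and -0.59 for *CXCL8*, which was not, and the difference between the lines was not called for either gene (0.57 and 0.45).

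Interferon-stimulated genes were split. Of 41, 5 fell and 3 rose, with a median of -0.17. The median was -0.25 within slide 2, 0.014 within slide 3 and -0.26 without OXA plus Curcumin replicate 3. Without one array the falls numbered 0 to 7. *HERC5*, the ligase for ISG15, fell from 7.35, 7.87 and 7.94 to 6.34, 6.88 and 7, and *IFITM3* (-0.76), *IFITM2* (-0.71), *IFI44* (-0.63) and *OAS3* (-0.54) fell too. The IFITM genes are close paralogs whose signals may mix. *IRF7* (0.73), *OAS1* (0.46) and *STAT2* (0.35) rose. Without one array the number that fell lay between 0 (without OXA replicate 2 or 3) and 7 (without OXA plus Curcumin replicate 3). In HTOXAR3, 17 fell and 2 rose.

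Among clock genes 6 of 19 rose and 0 fell, with a median of 0.29: *BHLHE40* (0.89), *TEF* (0.85), *CRY2* (0.69), *PER1* (0.66), *DBP* (0.60) and *NR1D1* (0.41), while *BMAL1* (-0.02) and *CLOCK* (-0.05) did not pass the test. The clock rises numbered 3 to 4 without one array. Of 31 immediate early genes 4 rose, among them *ZFP36* (0.89), which destabilises cytokine RNAs, and *MAFF* (0.54), and *FOS* differed by 0.56 without passing the test. Of 26 genes of ERK output 1 rose, *DUSP5* (0.66), a share below that of bright genes, and it was called in 1 of the 6 fits without one array. Of 34 hypoxia and glycolysis genes 2 rose and 2 fell, near the shares of bright genes (5.48% and 4.35%). *NDRG1* and *ADM* (1.72), which encodes adrenomedullin, rose, and *ENO2* (-0.64) and *LDHA* (-0.35) fell. *CA9* (-0.63) and *VEGFA* (0.31) did not pass the test.

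Of 12 aryl hydrocarbon receptor targets 3 rose, *CYP1A1* (1.07), the defining target, *NQO1* and *CYP1B1* (0.48). Of 33 genes of cholesterol and fatty acid synthesis 4 rose (*INSIG1*, 0.83, *NSDHL*, 0.49, *HMGCS1*, 0.49, and *IDI1*, 0.44) and 2 fell (*ELOVL6*, -0.38, and *PMVK*, -0.33). Of 19 tubulins 6 rose, led by *TUBB6* (1.10), and 1 fell, *TUBB* (-0.28), within a family of similar sequence, and this fall lost its call in each of the 6 fits without one array. Of 42 genes of EMT and matrix 4 rose and 3 fell, beside 5.48% and 4.35% of bright genes. The collagenase *MMP13* was called higher, with 4.13, 4.48 and 2.29 with OXA, where 1 of 3 arrays was well above background, and 5.58, 6.34 and 5.51 with Curcumin added, and no fold is given. *SNAI1* (0.84), *LAMB3* (0.74) and *LAMA3* (0.63) rose. *CDH3* (-0.64), *TGFBI* (-0.37) and *TIMP1* (-0.29) fell, and *CDH1* (0.26) and *VIM* (-0.52) did not pass the test.

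Of 37 genes of intestinal differentiation 3 rose, *MUC13* (0.86), *DPP4* (0.68) and *CEACAM6* (0.62), and 1 fell, the trefoil peptide *TFF2* (-1.06). Of 26 Wnt and stem cell targets 2 rose, *NKD2* (0.77) and *EPHB3* (0.40), and 2 fell, *CD44* (-0.53) and *CCND1*. A dimmer probe of *CD44* gave -0.12 and was not called. The counts of both lists lay near the shares of bright genes that rose (5.48%) and fell (4.35%). Of 38 ribosome biogenesis genes 5 fell, among them *NOP14* (-0.46) and *FBL* (-0.46), the rRNA methyltransferase fibrillarin, and 1 rose, *BOP1* (0.86). Counts of several lists moved with single arrays. Without one array the rises numbered 2 to 3 in the BCL2 family, 2 among immediate early genes, 3 to 5 among tubulins and 1 to 2 in the lists of intestinal differentiation and of platinum transport, and the falls numbered 0 to 2 among genes of EMT and matrix, 0 to 3 among those of cholesterol and fatty acid synthesis and 0 to 4 among Wnt targets.

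**Figure D3:**
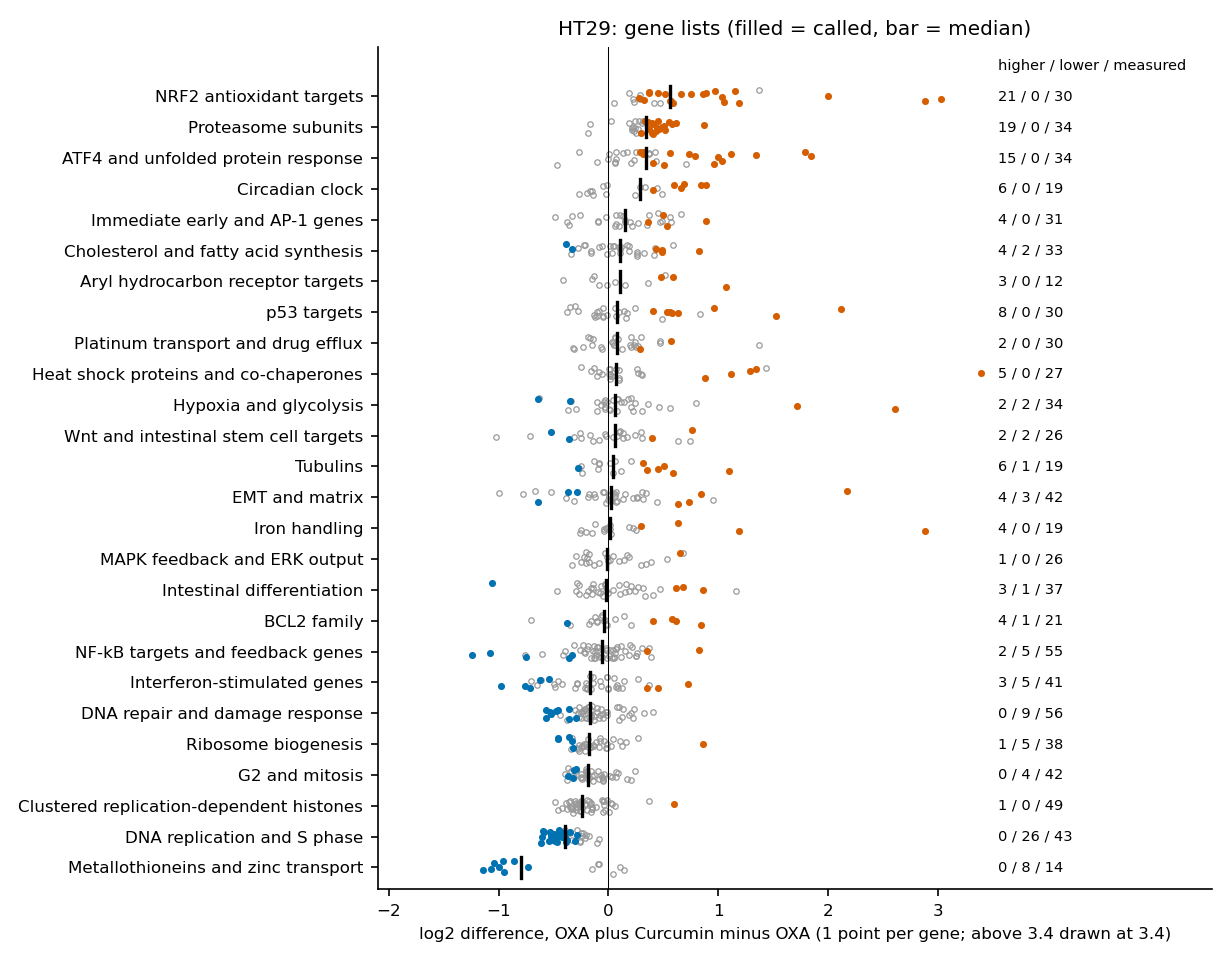
Log2 difference (OXA plus Curcumin minus OXA) in HT29 of every measured member of 26 gene lists, with 1 point per gene, called rises in orange, called falls in blue, genes that were not called as open grey points and the list median as a bar. The NRF2 list (21 higher of 30), the proteasome (19 of 34) and the ATF4 list (15 of 34) lie to the right, and metallothioneins (8 lower of 14) and DNA replication (26 lower of 43) lie to the left. *HSPA6* (6.61) is drawn at the right edge.

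Set beside untreated HT29, in comparisons that share the untreated and the treated arrays, the lists took different paths. The NRF2 targets had a median of -0.14 with OXA and 0.46 with OXA plus Curcumin. The ATF4 and unfolded protein response genes had a median of -0.39 with OXA and -0.05 with the combination, over members on both sides of 0. The proteasome genes had medians of 0.14 and 0.48. Replication genes had medians of 0.15 and -0.24, with the combination below untreated cells and OXA above them. Interferon-stimulated genes had medians of 0.62 and 0.36.

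**Figure D4:**
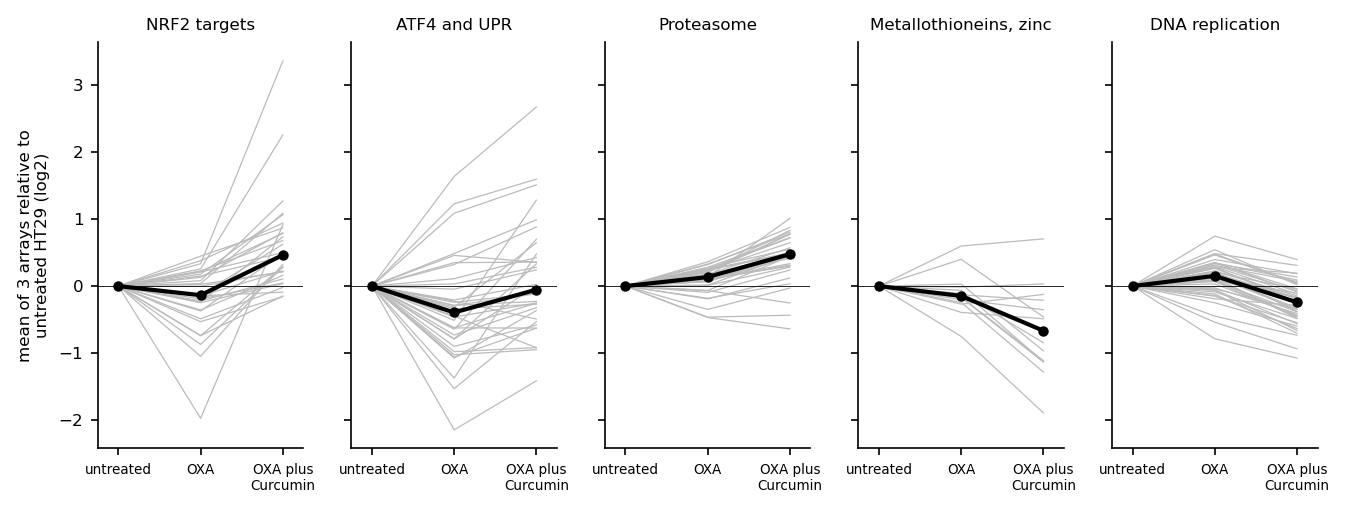
Mean level of 3 arrays relative to untreated HT29 (log2, vertical axis) in untreated, OXA and OXA plus Curcumin arrays, with 1 grey line per gene and the list median in black. The NRF2 and ATF4 medians dip with OXA (-0.14 and -0.39) and rise with Curcumin added (0.46 and -0.05), and the metallothionein median falls to -0.67.

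In HTOXAR3, adding Curcumin to 30 µM OXA changed 3198 of 36203 genes (8.83%), 1602 of them higher and 1596 lower, and 1968 genes without HTOXAR3 OXA plus Curcumin replicate 3. The OXA dose was 3 times that given to HT29, so the lines differ in dose as well. Of the genes called in HT29, 1415 were called in HTOXAR3 (70.7% of the HT29 calls and 44.2% of the HTOXAR3 calls), 1403 in the same direction and 12 in the opposite one. The effect itself differed between the lines in 49 genes (0.135%), 39 with a higher difference in HT29 and 10 with a lower one. With the replicate number as a block the count was 17, and without one array it lay between 8 (without HTOXAR3 OXA plus Curcumin replicate 1) and 61 (without HT29 OXA plus Curcumin replicate 1).

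Of those 49 genes, 31 were called in HT29. *SLC38A10*, an amino acid transporter, rose in HT29 from 9.87, 10.14 and 10.19 to 11.33, 11.49 and 12.08 (1.56) and differed by -0.44 in HTOXAR3. *SLC19A1*, the reduced folate carrier, rose from 6.12, 6.16 and 6.41 to 7.41, 7.38 and 8.09 (1.40), against -0.32 in HTOXAR3. In HT29 both had been far lower with OXA alone than in untreated cells, with differences of -4.34 and -4.81, and the combination still differed from untreated cells by -2.78 and -3.42. *WNT11* fell in HT29 from 10.87, 10.92 and 10.99 to 9.84, 9.71 and 9.59, with a difference between the lines of -0.97 ± 0.11 (limma, adjusted p = 0.012). The *WNT11* call for this difference was lost with the replicate number as a block. *TRIM54*, a muscle ring finger protein, was the widest in the other direction: its arrays in HT29 lay between 9.45 and 9.74 in either treatment (0.04), whereas it rose by 3.56 in HTOXAR3 from a mean of 6.11 to 9.67. None of the NRF2, heat shock, ATF4, proteasome, metallothionein or replication genes was called for a difference between the lines. Only 0.135% of all genes were, so the absence of calls in these lists is near that share and is no result about them.

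**Figure D5:**
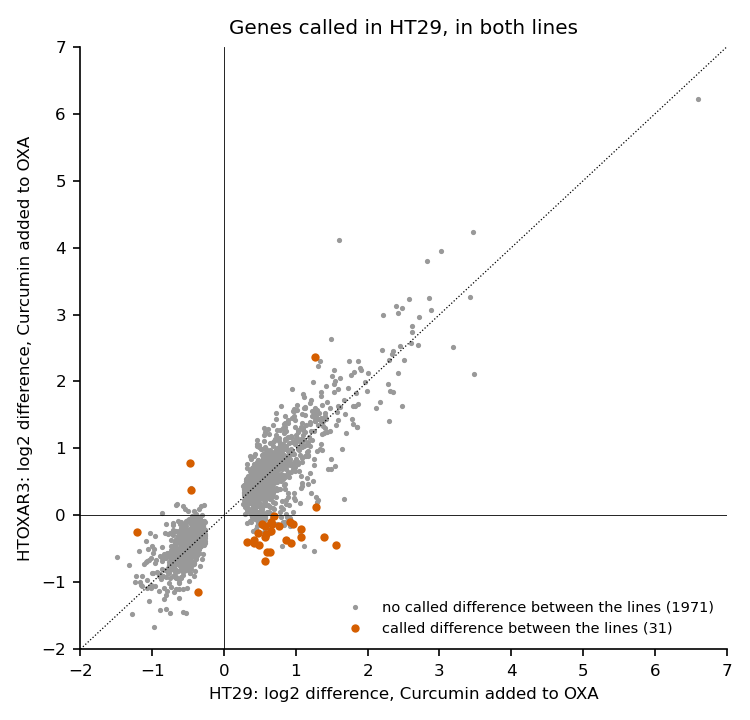
Log2 difference (OXA plus Curcumin minus OXA) in HT29 (horizontal axis) and HTOXAR3 (vertical axis) for the 2002 genes called in HT29, with the line of equal values dotted. The 31 genes with a called difference between the lines are orange, most of them higher in HT29 and at or below 0 in HTOXAR3, and *HSPA6* is at the upper right (6.61 and 6.23).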

How the data were processed

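Total RNA of 18 samples was hybridised to 1-colour Agilent arrays whose design is annotated on GRCh37, and the authors read the scans with Feature Extraction 10.7.3.1. The deposited files hold each spot's mean and background intensity on a linear scale, and the authors' deposited value table, whose lines carry no gene names, holds normalized log2 values (medians of 6.48 to 6.49 per array).

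From 62976 spots, 58717 gene spots were kept. Following the study's methods, intensities were background-corrected by normexp (offset 0, as none is stated, although the lowest value of the authors' table, 5.65, lies near log2 of 50, 5.64, and an offset of 50 was an alternative), quantile-normalized and put on the log2 scale. Outlier-flagged spots were left out, spots of a probe were averaged, and the probe with the highest mean stood for each of 36204 gene names. Names were updated through RefSeq accessions (21095) or symbols. limma 3.58.1 (R 4.3.3) was fitted with 6 group terms to all 18 arrays, with Benjamini-Yekutieli adjustment over 36203 genes, an adjusted p under 0.05 and a fold above 1.2. The fit was tested on simulated data of 36057 genes. It recovered 18% and 22% of true differences of 0.5 and -0.5, and 44% of those of 1 and of -1. Not passing the test at such sizes therefore does not show that a gene was unchanged.

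The text names the 12 largest rises and falls among called genes with a RefSeq symbol and a probe well above background on all 6 arrays, up to 4 called and 2 defining uncalled members of each of 31 gene lists, every gene of the study's other assays and 2 chemokine receptors, and the 4 largest differences between the lines in each direction. Further list members were named after their values were seen, and 4 are not reported here by name. The comparison and the lists were chosen with earlier results of these data known. Signal over background limits precision, and the number of arrays limits the tests. Alternatives changed the adjustment, fold, background correction, scaling, probe choice, dim-probe filter, variance trend, slide, replicate block, arrays in the fit and single arrays. Same-numbered arrays did not vary together in HT29 (correlations of deviations 0.0076, 0.059 and 0.015), where those numbered 2 and 3 shared a slide. In HTOXAR3 same-numbered arrays did (0.109 to 0.195), and all of them shared a slide. Differently numbered HTOXAR3 arrays on the same slide had correlations of -0.041 and -0.070. Promoter letters were searched in RefSeq windows, which 695 of 870 listed or named genes had.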

Additional observations from a re-analysis of the deposited data

Results flagged for a closer look

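The effect of adding Curcumin differed between HT29 and HTOXAR3 by a test of the difference itself (limma, HT29 difference minus HTOXAR3 difference, log2 scale) in 11 named genes. Lower in HT29 were *TRIM54* (-3.51, adjusted p = 3.5e-06), *RGCC* (-1.26, adjusted p = 0.0015), a regulator of the cell cycle, *KPNA7* (-1.11), an importin, *RNF39* (-1.10) and *WNT11* (-0.97). *RGCC* fell by 0.48 in HT29 and rose by 0.78 in HTOXAR3. *KPNA7* rose in both lines, by 1.26 in HT29 and by 2.37 in HTOXAR3. *RNF39* differed by -0.08 in HT29 and rose by 1.02 in HTOXAR3. With the replicate number as a block, *TRIM54* was the 1 gene still called lower in HT29 (16 were called higher), so the calls of the other 4 were lost.

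Higher in HT29 were *SLC38A10* (2.00), *SLC19A1* (1.71), *CHLSN* (1.39, adjusted p = 0.00011), *ARFRP1* (1.34), *BOP1* (1.23, adjusted p = 0.0015) and *NKD2* (0.93). Each of these 6 genes rose in HT29, by 0.77 to 1.56, and had a difference below 0 in HTOXAR3. With OXA alone each had been lower than in untreated HT29, with differences of -3.95 for *CHLSN*, -3.89 for *ARFRP1*, -3.46 for *BOP1* and -2.43 for *NKD2*, and with the combination each was still lower. Other probes of these genes gave smaller differences in HT29: 0.06 and 0.24 for *SLC38A10*, 0.22 for *SLC19A1*, -0.04 and 0.75 for *ARFRP1* and 0.15 for *NKD2*, none of them called. The OXA dose differed between the lines, and its part in these differences cannot be told apart from that of the line.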

How the results depend on the processing

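Of 2002 genes called in HT29, 2001 kept their direction with Agilent's processed signal and 1989 with the mean of probes. The number of calls was 1839 with 75th percentile scaling, 1776 with the mean of probes, 1672 with the slide block (1549 of the 2002 among them), 2125 with the processed signal, 2225 and 2567 with offsets of 16 and 50, 2693 with an intensity trend, 2735 with the filter on dim probes and 2296 in the authors' table, whose 36204 lines are unnamed. It moved by more than 1.5 times to 3702 with Benjamini-Hochberg, to 220 with a fold above 2, to 334 with the 9 HT29 arrays, to 16 with only the 6 arrays compared and to 728 in these with Benjamini-Hochberg, a setting chosen after seeing the data. In those smaller fits fewer arrays set the spread. Unadjusted, 8049 genes had a p under 0.05. Without one array the calls numbered 1210 to 1597, and 17 to 27 of the 117 named calls were lost. The HTOXAR3 count was 5125 with Benjamini-Hochberg, 363 with a fold above 2 and 1968 to 2429 without one array, and the median of all genes there moved from -0.02 to -0.14 with 75th percentile scaling of normexp values and to 0.09 with that of the processed signal.

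The difference between the lines was called in 323 genes with Benjamini-Hochberg, 22 with a fold above 2, 178 and 79 with offsets of 50 and 16, 139 with the filter, 190 with the trend and 8 to 61 without one array. The cause was not tested. With the replicate number as a block, 1304 genes were called in HT29 (784 higher, 520 lower), 2416 in HTOXAR3 and 17 for the difference between the lines. Of the 129 genes named by rule, 3 that were not called changed sign: without one array *TRIM54* lay between -0.014 and 0.13, *BCL2* between -0.038 and 0.031 (0.0028 with the processed signal) and *CXCR1* between -0.27 and 0.10. With only the 6 arrays compared, the list counts fell to 3 rises for NRF2 targets, 1 for heat shock genes and 0 for the ATF4, proteasome, metallothionein and replication lists. Signal limits dim genes: 24 called genes were dim with OXA only and 8 in both groups.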
